A study of Homo sapiens with 12 samples.

Results

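The genes described here are 41 human genes of the G1/S transition and of DNA replication, chosen by name for their known roles. They comprise 14 genes of origin licensing and the replicative helicase, 7 cyclins and cyclin-dependent kinases, 3 genes of the E2F and RB switch, 7 of the polymerases, sliding clamp and clamp loader, 2 of flap removal and ligation, 4 of nucleotide supply, and 4 of chromatin, repair and histone mRNA. All 41 were found once among the 26231 named genes of the deposited normalised table, and 40 of the 41 passed the filter on low counts that left 11968 genes for testing. The gene that did not pass was CCND2, a D-type cyclin, with 1 count over the treated SH2 libraries and 1 over the untreated control libraries. It had 0 counts over the treated control libraries and over the untreated SH2 libraries, which allows levels of up to 0.5 and 0.249 CPM, reads scaled to a common library size, over those groups.

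RNA came from the ALDH+ fraction of 697(EU3), a human B-cell precursor leukaemia line sorted for high aldehyde dehydrogenase activity. The sources used here state neither dose nor duration of the doxycycline. In treated SH2 cells (n = 4) doxycycline had switched on an shRNA against IGF2BP1, called SH2, together with a green fluorescent eGFP reporter, and GFP+ cells had been sorted before RNA isolation. Untreated SH2 cells (n = 4) held the same construct without doxycycline. Doxycycline-treated control cells (n = 2) and untreated control cells (n = 2) are labelled as the control for the drug, and whether they hold the scrambled shControl named in the protocol is not stated. Each of the 4 sets was a new ALDH+ sort with an independent drug treatment. The SH2 cells span sets 1 to 4, and the control cells sets 2 and 4. No sort for a reporter is stated for untreated or control cells, so the drug and the second sort came together in treated SH2 cells.

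Cells pass from G1 into S phase when D-type cyclins with CDK4 or CDK6, and then cyclin E with CDK2, phosphorylate the retinoblastoma protein RB1, which releases E2F transcription factors. E2F factors switch on the genes of licensing, nucleotide synthesis and the replication fork, and many of these mRNAs peak around the start of S phase. In normal B-cell precursors this programme is strong in the large cycling pre-B stage, and cyclin D3 is the D-type cyclin that pre-B cells depend on. IGF2BP1, normally expressed before birth and again in many tumours, binds mRNAs and protects them from decay, and in other tumour cells the E2F1 mRNA is among its known targets.

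The promoters of several of these genes carry the short element that E2F factors recognise, which is why a few are printed here. Windows of 300 bases, reaching 250 bases before and 50 bases after each annotated start, were taken from RefSeq on GRCh38.p14 and matched 36 of the 41 genes. They were searched on both strands for TTTCCCGC, TTTGGCGC, TTTCGCGC and TTTGCCGC, of which TTTGGCGC and TTTCGCGC overlap in the MCM6 promoter. At least 1 of the 4 words stood in 20 of the 51 windows of these genes (39.2%), against 1164 of 35116 windows of all genes (3.31%). By gene, 19 of 36 (52.8%) had a match, against 3.99% of all genes. A match is a run of letters and not a measured binding site. The stretches printed below run 5′ to 3′ along the gene's own strand, with the matched words or their reverse complements in capitals. They end just before the annotated start, except that of LIG1. The LIG1 stretch ends farther upstream, and its matched word begins at position -114 from the start. E2F1 and E2F2 are the E2F factors among these genes, CDT1 and LIG1 had the most reads of their functional groups, and TYMS and UHRF1 were among the genes that varied most between sets.
E2F1 (chr20:33686386-33686454, minus strand): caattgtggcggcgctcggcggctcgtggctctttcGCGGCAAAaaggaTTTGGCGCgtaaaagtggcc
E2F2 (chr1:23531234-23531311, minus strand): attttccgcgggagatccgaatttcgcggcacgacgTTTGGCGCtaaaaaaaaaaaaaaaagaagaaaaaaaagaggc
CDT1 (chr16:88803718-88803788, plus strand): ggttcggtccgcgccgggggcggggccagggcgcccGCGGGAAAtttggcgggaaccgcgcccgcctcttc
LIG1 (chr19:48170415-48170494, minus strand): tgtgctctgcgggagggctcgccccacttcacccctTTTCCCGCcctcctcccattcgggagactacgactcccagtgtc
TYMS (chr18:657578-657652, plus strand): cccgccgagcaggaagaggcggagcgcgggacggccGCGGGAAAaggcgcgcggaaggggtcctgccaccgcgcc
UHRF1 (chr19:4909451-4909500, plus strand): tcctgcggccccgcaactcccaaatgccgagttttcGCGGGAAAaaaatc

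The kit reads the 3′ ends of polyadenylated transcripts, and 2210291 to 3370952 reads per library were assigned to genes. IGF2BP1, the target of the shRNA, ENSG00000159217 on chromosome 17, 48997412 to 49055650, had 6.28, 14.8, 25.0 and 16.2 CPM in treated SH2 cells of sets 1 to 4, against 21.7, 30.5, 39.2 and 32.9 CPM in untreated SH2 cells, lower in 4 of 4 sets without passing over all genes (log2 fold change -0.99 ± 0.43, SE; edgeR adjusted p = 0.983). Control cells held little of it, at 0.961 and 0.382 CPM with doxycycline and 1.42 and 0 CPM without. All 12 markers of B-cell precursors had reads in every library. SH2 and control libraries also differed in the immunoglobulin light chain, since the kappa constant gene took 0% to 0.141% of light chain counts in SH2 libraries and 99.7% to 99.9% in control libraries. The treated SH2 library of set 4 stood apart, with 6 interferon-response genes summing to 1077 CPM, against 62.0 to 114 CPM in the other SH2 libraries. The 6 T-cell markers summed highest in the control libraries of set 2, at 643 CPM with doxycycline and 598 CPM without. They summed to 15.3 and 59.6 CPM in the control libraries of set 4 and 23.8 to 105 CPM in SH2 libraries. All 6 had reads in both control libraries of set 2 and in the untreated control library of set 4. The myeloid, erythroid, and stromal and epithelial lists summed to at most 44.5 CPM in any library.

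**Figure D1:**
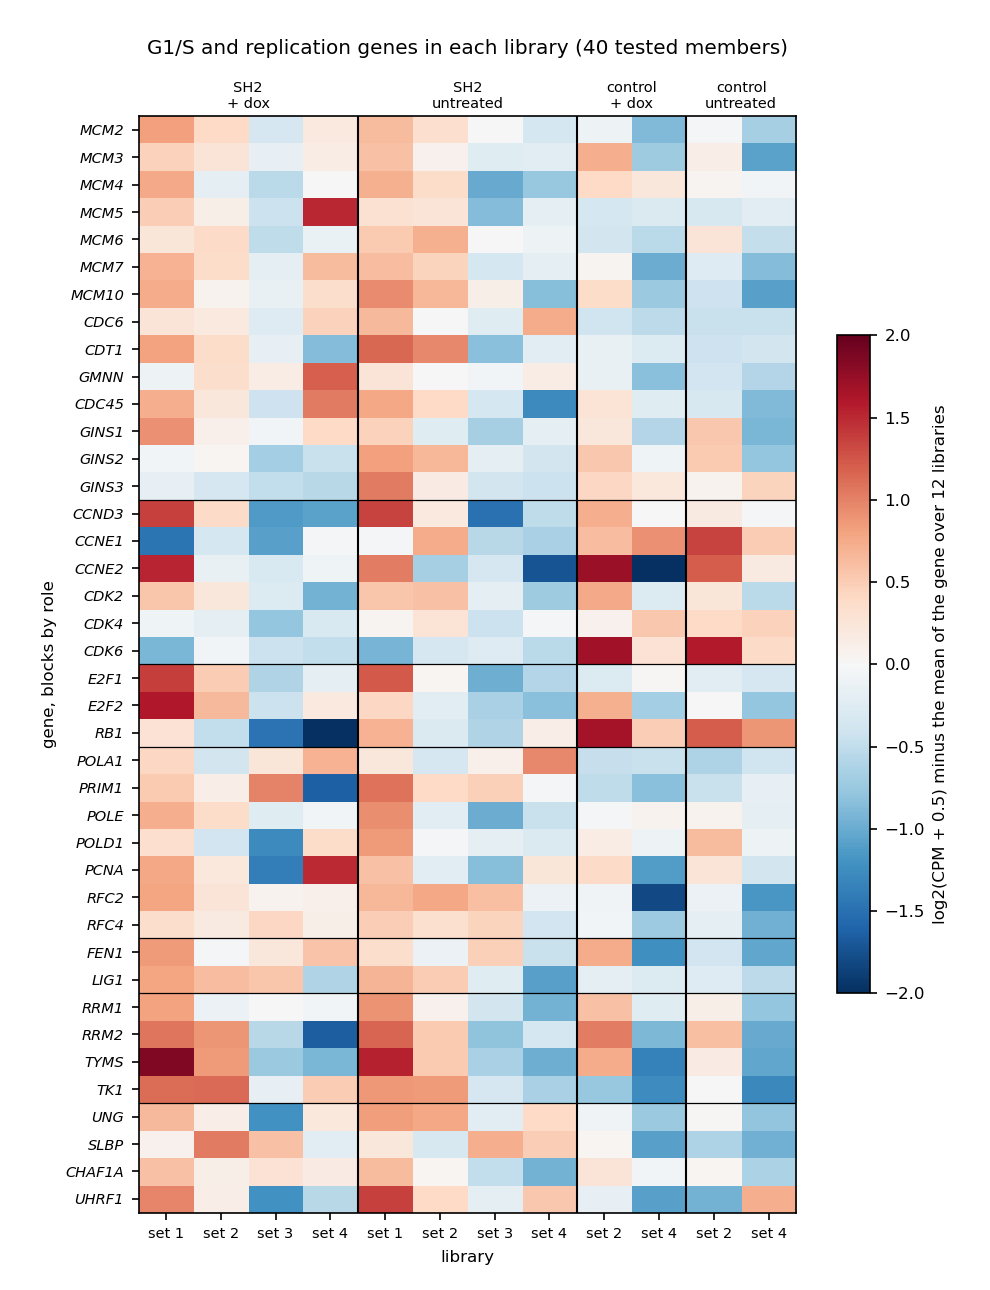
Heat map of the 40 tested genes (rows, in blocks by role) in the 12 libraries (columns, by group and set); colour shows log2(CPM + 0.5) minus the mean of the gene over the 12 libraries, with colours ending at -2 and 2. Both set 1 columns of SH2 cells are mostly red, and CDK6 and RB1 are highest in control set 2.

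With doxycycline, none of these genes passed the test in SH2 cells. edgeR's quasi-likelihood test passed 0 of 40 genes at an adjusted p of 0.05, where 2 of all 11968 genes passed (0.0167%), and 0 of 40 had an unadjusted p under 0.05, where 4.88% of all genes did (2.22% higher and 2.66% lower). DESeq2 and limma also passed 0 of 40, with 1 and 0 at an unadjusted p under 0.05. With the set number as a block, which pairs each treated library with its untreated partner, again 0 of 40 passed (0.0501% of all genes did), and 5 of 40 (12.5%) had an unadjusted p under 0.05, beside 9.17% of all genes. These were E2F2 (log2 0.84 ± 0.22, edgeR adjusted p = 0.303), RB1 (-0.98 ± 0.34, adjusted p = 0.436), GINS2 (-0.53 ± 0.23, adjusted p = 0.520), UNG (-0.48 ± 0.22, adjusted p = 0.535) and MCM5 (0.58 ± 0.27, adjusted p = 0.538). Log2 fold changes ran from -0.78 for RB1 to 0.94 for E2F2, with 23 positive and 17 negative, and their median was 0.07, beside 0.03 over all genes tested. The median standard error was 0.37, so single genes were measured loosely. The median became -0.16 without treated set 1, -0.03 without untreated set 4 and 0.30 without untreated set 1. Leaving out a library breaks its pair, so the level of the set enters these medians, and set 1 stood high in both groups. The same holds for fold changes of single genes given below with a library left out. In bulk RNA, fewer cells in a phase of the cycle and less mRNA per cell cannot be told apart.

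The sets went different ways. The median difference of log2 CPM, treated minus untreated, was -0.07 in set 1, -0.05 in set 2, -0.03 in set 3 and 0.38 in set 4, the set whose treated library carried the interferon-response reads, and all genes tested had medians between -0.01 and 0.01. What that library's reads contributed to its median was not tested. GINS1, CCNE2, E2F1, E2F2, LIG1 and TK1 were higher with doxycycline in 4 of 4 sets, which is 15% of the genes beside 10.6% of all genes. MCM6, GINS2, GINS3, CDK4, RB1, UNG and UHRF1 were lower in 4 of 4 sets, which is 17.5% beside 10.1%. For none of the 40 were the treated and untreated SH2 libraries separated without overlap, where 1.38% of all genes were separated upward and 2.03% downward.

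**Figure D2:**
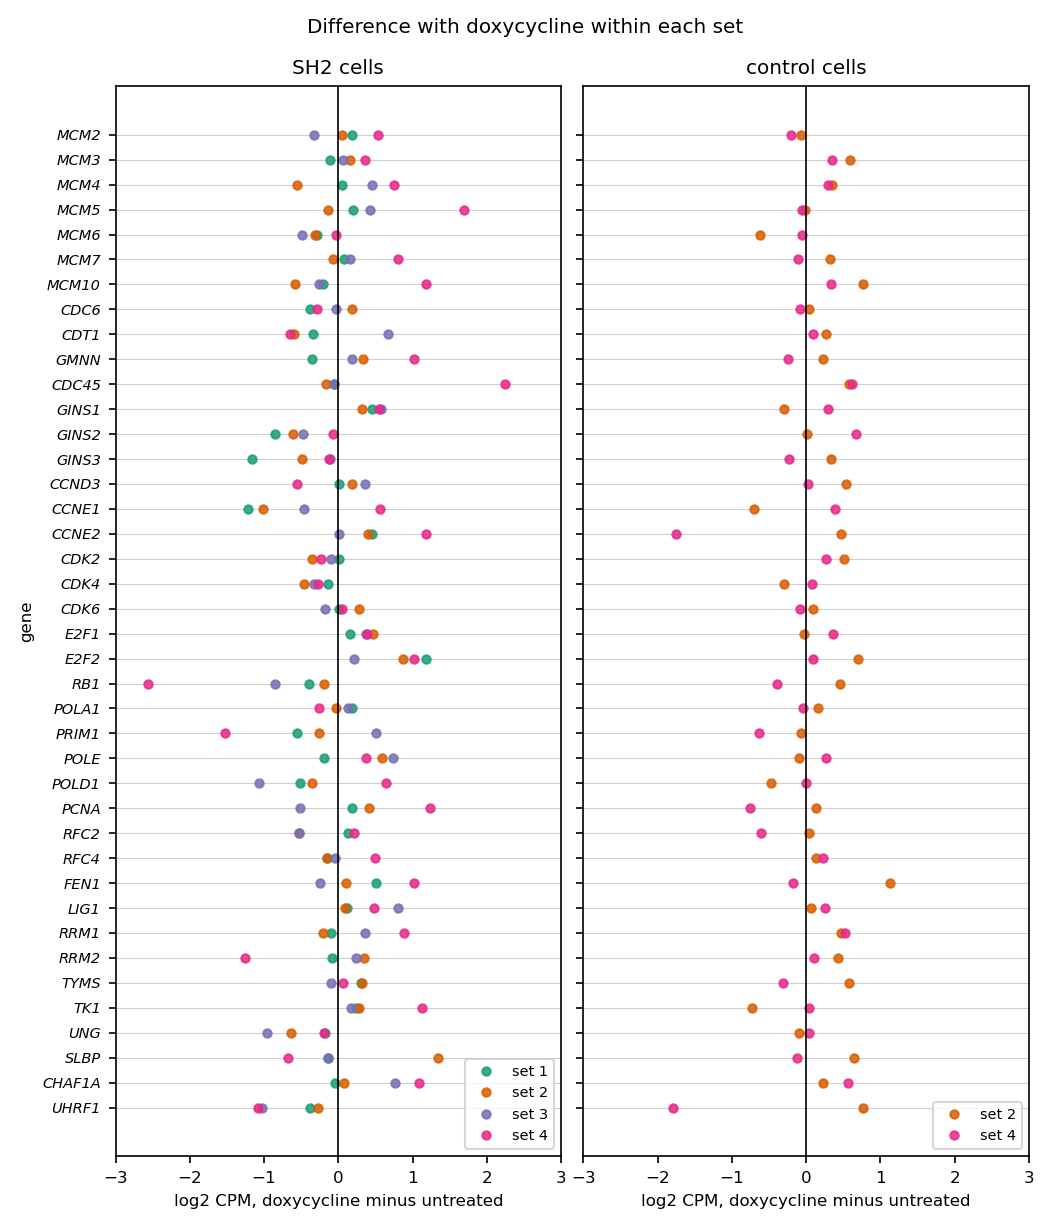
Difference in log2 CPM (horizontal axis), doxycycline minus untreated, for each of the 40 tested genes (vertical axis) within each set, for SH2 cells (left, 4 sets) and control cells (right, 2 sets). Points of most genes lie on both sides of 0, and the points farthest right in SH2 cells are mostly set 4.

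E2F2, an activating E2F factor, had the smallest p-value of the 40 genes under doxycycline. The gene, ENSG00000007968, lies on chromosome 1 at 23506430 to 23531220 (GRCh38, minus strand). It had 207, 107, 50.4 and 78.2 CPM in treated SH2 cells of sets 1 to 4, against 90.6, 58.1, 43.4 and 38.0 CPM in untreated SH2 cells. The treated library was the higher one in every set, with log2 differences of 1.18, 0.87, 0.21 and 1.02, but treated set 3 lay below untreated sets 1 and 2. The log2 fold change was 0.94 ± 0.44 (SE, edgeR adjusted p = 0.983), and it was 0.45 without treated set 1. Control cells held 112 and 42.4 CPM with doxycycline and 68.3 and 39.8 CPM without, in sets 2 and 4, so the treated control library was also the higher one in both sets. E2F1, the other E2F activator measured, ENSG00000101412 on chromosome 20, 33675683 to 33686404, had 194, 106, 48.8 and 64.7 CPM in treated and 173, 76.5, 37.2 and 49.2 CPM in untreated SH2 cells. It was higher by 0.16 to 0.46 on the log2 scale in each set, far less than the range of 2.08 between the set means (log2 fold change 0.30 ± 0.48, adjusted p = 0.986). Its control levels were 61.5 and 75.6 CPM with doxycycline and 63.1 and 58.9 CPM without. RB1, the pocket protein that holds E2F factors inactive, ENSG00000139687 on chromosome 13, 48303726 to 48599436, had 46.1, 26.6, 13.2 and 6.06 CPM in treated and 60.7, 30.5, 24.6 and 41 CPM in untreated SH2 cells. It was lower in each treated library than in its partner, and the difference was largest in set 4, at -2.56 (log2 fold change -0.78 ± 0.50, adjusted p = 0.983).

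Among the licensing and helicase genes, 8 of 14 were positive and 6 negative under doxycycline in SH2 cells. MCM5, a subunit of the MCM helicase that unwinds DNA at the fork, ENSG00000100297 on chromosome 22, 35400063 to 35425430, had 98.9, 75.9, 51.7 and 199.8 CPM in treated and 86.1, 83.6, 38.2 and 61.0 CPM in untreated SH2 cells. Treated sets 1 and 4 lay above all untreated SH2 libraries, set 4 by far the more. The log2 fold change of 0.67 ± 0.37 (adjusted p = 0.983) was 0.17 without treated set 4. In control cells the 4 libraries lay close together, at 54.8 and 56.9 CPM with doxycycline and 55.5 and 59.3 CPM without. CDC45, which joins the MCM ring and the GINS complex in the active helicase, had 33.9, 23.9, 15.2 and 42.4 CPM in treated and 35.2, 27.0, 15.9 and 8.15 CPM in untreated SH2 cells. Its log2 difference was 2.24 in set 4, whose untreated library was the lowest of the 8, and between -0.17 and -0.05 in the other sets. CDT1, which loads the MCM ring onto origins, ENSG00000167513 on chromosome 16, 88803213 to 88809258, had 447, 329, 228 and 139.8 CPM in treated and 568, 498, 143 and 221 CPM in untreated SH2 cells. It was lower with doxycycline in 3 sets and higher in set 3 (log2 fold change -0.32 ± 0.42, adjusted p = 0.986). Control cells held 230.1 and 211 CPM with doxycycline and 191 and 197 CPM without.

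The fitted changes of the GINS subunits differed in sign, but none passed and a difference between the subunits was not tested. GINS3, ENSG00000181938 on chromosome 16, 58295080 to 58406144, had 11.7, 10.3, 9.22 and 8.76 CPM in treated and 27.5, 14.8, 10.0 and 9.66 CPM in untreated SH2 cells. The 4 treated libraries lay close together and untreated set 1 far above them, and the log2 fold change of -0.62 ± 0.35 (adjusted p = 0.983) was -0.21 without that library. GINS2, ENSG00000131153 on chromosome 16, 85676198 to 85690073, had 23.0, 24.7, 14.8 and 17.5 CPM in treated and 42.6, 38.3, 21.1 and 18.4 CPM in untreated SH2 cells, lower in every set and overlapping between the groups (log2 fold change -0.59 ± 0.36, adjusted p = 0.983). Its end lies within 500 bases of GSE1 on the other strand, and the strand setting of the counting is not given in the sources used here. GINS1 differed the other way, with a log2 fold change of 0.51 ± 0.40 (adjusted p = 0.983) and a higher treated library in every set.

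Of the cyclins and kinases, CCND3 had the most reads. It encodes cyclin D3, ENSG00000112576 on chromosome 6, 41934933 to 42050357, and had 1689, 855, 299 and 313 CPM in treated and 1682, 749, 232.9 and 463 CPM in untreated SH2 cells. Set 1 was the highest and set 3 the lowest in both groups, and the log2 fold change was 0.01 ± 0.60 (adjusted p = 1). CDK4, the other main partner of D-type cyclins, ENSG00000135446 on chromosome 12, 57747727 to 57756013, had 146, 134, 90.3 and 125 CPM in treated and 160.2, 186, 114 and 151 CPM in untreated SH2 cells. The treated library was lower in every set, by 0.14 to 0.46 on the log2 scale (log2 fold change -0.30 ± 0.23, adjusted p = 0.983), and the end of CDK4 lies within 500 bases of TSPAN31 on the other strand. CCNE1 and CCNE2, the E-type cyclins, had only 213 and 100 counts over the 12 libraries so their differences were poorly measured. CCNE1 was lower with doxycycline in sets 1 to 3 and higher in set 4, and CCNE2 was higher in every set, by 0.01 to 1.18 on the log2 scale.

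The genes of DNA synthesis were spread around 0 as well. RFC4, a subunit of the loader that places the PCNA clamp on DNA, ENSG00000163918 on chromosome 3, 186789880 to 186807058, had 185, 165, 193 and 158 CPM in treated and 205, 183, 199 and 111 CPM in untreated SH2 cells, nearly level in sets 1 to 3 (log2 fold change 0.01 ± 0.26, adjusted p = 1). Its end lies within 500 bases of EIF4A2 on the other strand. LIG1, the ligase that seals Okazaki fragments, ENSG00000105486 on chromosome 19, 48115445 to 48170603, had 273, 241, 232 and 104 CPM in treated and 252, 225, 133 and 73.9 CPM in untreated SH2 cells. It was higher in every set, by 0.10 to 0.80 on the log2 scale (log2 fold change 0.31 ± 0.37, adjusted p = 0.986). PCNA, the sliding clamp, differed by 0.18, 0.42, -0.51 and 1.24 on the log2 scale in sets 1 to 4. RRM1, the large subunit of ribonucleotide reductase, ENSG00000167325 on chromosome 11, 4094707 to 4138876, had 326, 172, 185 and 179.9 CPM in treated and 348, 199, 144 and 96.9 CPM in untreated SH2 cells. Set 1 was the high set in both groups (log2 fold change 0.13 ± 0.38, adjusted p = 0.992). TYMS, the thymidylate synthase, ENSG00000176890 on chromosome 18, 657604 to 673578, had 506, 253, 83.7 and 74.1 CPM in treated and 409, 202, 89.4 and 70.9 CPM in untreated SH2 cells, with a log2 fold change of 0.25 ± 0.68 (adjusted p = 0.990). UHRF1, which reads hemimethylated DNA and brings the maintenance methyltransferase to the fork, ENSG00000276043 on chromosome 19, 4903080 to 4962154, had 110.2, 60.8, 23.7 and 37.7 CPM in treated and 144, 73.5, 49.2 and 80.9 CPM in untreated SH2 cells. Each treated library was below its partner, by 0.27 to 1.08 on the log2 scale, and the groups overlapped (log2 fold change -0.58 ± 0.49, adjusted p = 0.983). TYMS ends within 500 bases of ENOSF1 on the other strand.

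The control cells were the design's check on doxycycline itself. Of the 40 genes 0 passed in edgeR, DESeq2 or limma, as did 0% of all genes in edgeR, and 0 had an unadjusted p under 0.05, where 0.685% of all genes did. Log2 fold changes were positive for 26 and negative for 14, with a median of 0.11 beside 0.01 over all genes tested. Within sets, which keeps the pairing, the median difference of log2 CPM was 0.19 in set 2 and 0.03 in set 4. The fitted median was -0.33 without treated set 2 and -0.03 without untreated set 4. Leaving out a library breaks its pair, so the difference in level between sets 2 and 4 enters these values. FEN1, the flap endonuclease of Okazaki fragments, ENSG00000168496 on chromosome 11, 61792637 to 61797244, had the smallest p-value, with 157 and 39.7 CPM in treated and 71.2 and 45.2 CPM in untreated control cells of sets 2 and 4. It was higher with doxycycline in set 2 and lower in set 4 (log2 fold change 0.76 ± 0.53, adjusted p = 1), and its end overlaps FADS2 on the same strand. MCM10, which helps start the helicase, ENSG00000065328 on chromosome 10, 13161554 to 13211104, had 49.4 and 22.5 CPM in treated and 28.5 and 17.7 CPM in untreated control cells (log2 fold change 0.65 ± 0.55, adjusted p = 1). MCM3, another helicase subunit, ENSG00000112118 on chromosome 6, 52264009 to 52284881, had 197 and 72.6 CPM in treated and 131 and 56.8 CPM in untreated control cells (log2 fold change 0.53 ± 0.48, adjusted p = 1). All 3 log2 fold changes turned negative without treated set 2, at -0.55 for FEN1, -0.03 for MCM10 and -0.37 for MCM3; set 4 was then compared with the mean of sets 2 and 4, and set 2 lay above set 4 for all 3. Within sets, MCM10 was higher with doxycycline by 0.77 and 0.33 and MCM3 by 0.59 and 0.35 on the log2 scale in sets 2 and 4. In both sets 14 of 40 genes were higher with doxycycline (35%, beside 25.3% of all genes) and 5 were lower (12.5%, beside 23.1%). Treated and untreated control libraries did not overlap for MCM4, CDT1 and CDC45, which were higher with doxycycline (7.5% of the genes beside 12.3% of all genes), and for PRIM1, the primase subunit, which was lower and ends within 500 bases of NACA on the same strand (2.5% beside 11.6%).

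The response of SH2 cells was then set against that of control cells. In this interaction 0 of 40 genes passed in edgeR, DESeq2 or limma, as did 0% of all genes in edgeR, and 0 had an unadjusted p under 0.05, where 0.969% of all genes did. The 3 smallest p-values were those of GINS2 (difference of log2 fold changes -0.85 ± 0.63, SE), TK1 (0.87 ± 0.75) and GINS3 (-0.67 ± 0.60), each with an adjusted p of 1. With the set number as a block again 0 of 40 passed (0.00836% of all genes did), and GINS2 gave -0.86 (edgeR unadjusted p = 0.0498). Without the block the median was -0.10, beside 0.01 over all genes tested. It was positive without untreated SH2 set 1 (0.11), treated control set 2 (0.19) or untreated control set 4 (0.10). Leaving out a library breaks its pair, so set levels enter these medians too. The standard errors of the differences had a median of 0.65, so differences of that size between the responses could not be resolved gene by gene.

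Set 1 stood high in many of these genes, with and without doxycycline. For each gene the 4 sets of SH2 cells were ranked within the treated and within the untreated libraries, as a description without a test. Set 1 was the highest of the 4 in both for 21 of 40 genes (52.5%), beside 16.2% of all genes tested. These 21 included MCM2, MCM3, MCM4, MCM7 and MCM10, CDT1, both E2F factors, CCND3, all of RRM1, RRM2 and TYMS, and UHRF1. Set 1 was the lowest in both for CDK6 alone (2.5%, beside 15.7% of all genes). The summed level of the 41 genes was 6502, 4300, 2753 and 3324 CPM in treated SH2 cells of sets 1 to 4, against 6465, 4393, 2574 and 2724 CPM in untreated SH2 cells. Sets 1, 2 and 3 thus had the same order in both groups, and set 4 had the widest gap between the groups. The 12 B-cell precursor markers were also highest in set 1 of both groups, summing to 3251, 2105, 1232 and 1296 CPM in treated and 3175, 2022, 1264 and 2489 CPM in untreated SH2 cells. Their part in the spread of the replication genes was not tested.

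**Figure D3:**
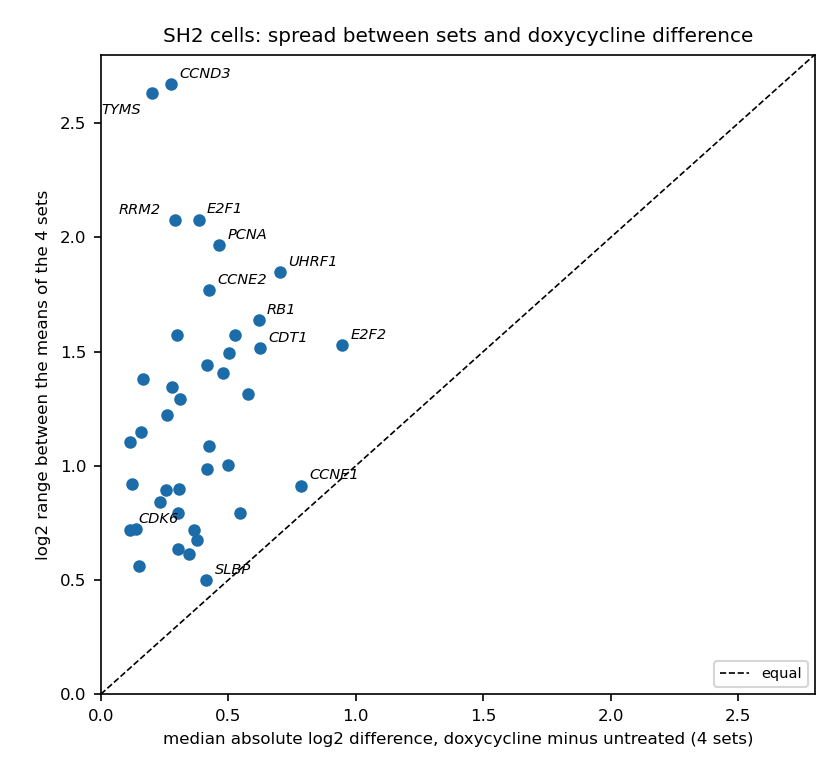
For each of the 40 tested genes in SH2 cells, the log2 range between the means of the 4 sets (vertical axis) against the median absolute log2 difference between treated and untreated libraries of a set (horizontal axis); the dashed line marks equal values. All 40 points lie above the line, with CCND3 (2.67) and TYMS (2.63) at the top.

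The range between the set means exceeded the median doxycycline difference for 40 of 40 genes, as it did for 87.4% of all genes tested. A range over 4 sets tends to be wider than a median difference whatever the gene. It was over 1 on the log2 scale for 24 of 40 genes (60%), beside 38.2% of all genes. For the genes of G2 and mitosis described below it was over 1 in 26 of 26. Among the 40 genes the median range was 1.18, beside 0.84 over all genes, whereas the median doxycycline difference of 0.36 was like the 0.37 of all genes. CCND3 had the widest range (2.67), followed by TYMS (2.63), RRM2 (2.08), E2F1 (2.08), PCNA (1.97) and UHRF1 (1.85), and SLBP, which binds the stem-loop of histone mRNAs, had the narrowest (0.50). Control cells showed such a difference between their 2 sets: set 2 was above set 4 in both treated and untreated libraries for 30 of 40 genes (75%), beside 31.5% of all genes. The median difference of set 2 minus set 4 was 0.71 on the log2 scale, beside -0.01 over all genes, and the 41 genes summed to 4589 and 2768 CPM in treated and 3681 and 2718 CPM in untreated control cells of sets 2 and 4. The T-cell marker reads of control set 2 moved with this difference, and their part in it was not tested.

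**Figure D4:**
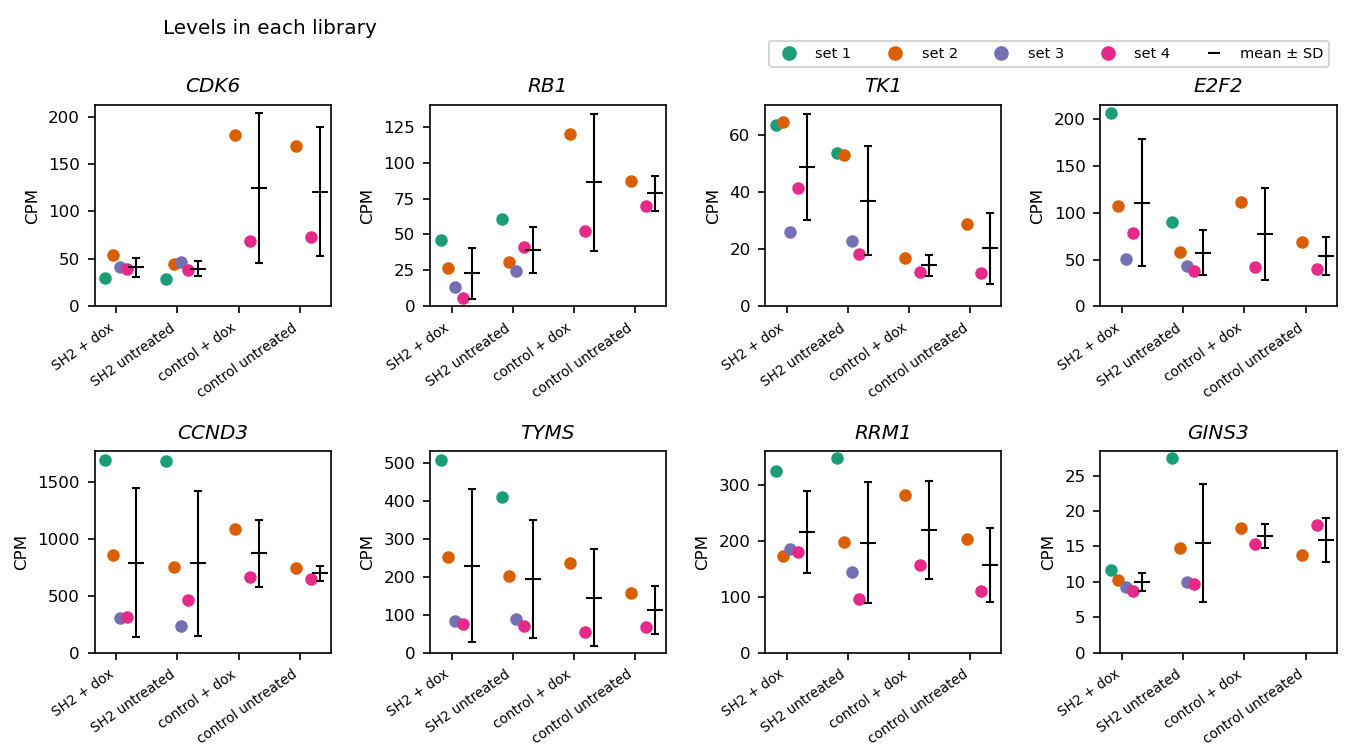
CPM (vertical axis) of 8 genes in each of the 12 libraries, by group (horizontal axis) and coloured by set, with the mean ± SD of each group at its right. CDK6 lies below 54 CPM in all 8 SH2 libraries and above 68 CPM in all 4 control libraries, and CCND3, TYMS and RRM1 are highest in set 1 of SH2 cells.

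SH2 and control cells were compared without and with doxycycline. They also differed in light chain (kappa share 0% to 0.141% in SH2 and 99.7% to 99.9% in control libraries) and in untreated IGF2BP1 level. What the construct contributes to a difference between them cannot be told apart from these other differences. CDK6, the kinase that pairs with D-type cyclins in many blood cells, was lower in SH2 cells under both conditions. In the filtered fit of all 12 libraries without a block for the set, edgeR called no gene of the list higher. Some alternative fits did, as given below. Without doxycycline edgeR passed 1 of 40 genes, lower in SH2 cells (2.5%), where 7.84% of all genes passed (4.9% lower and 2.94% higher). With doxycycline it passed 2 of 40, CDK6 and RB1, both lower (5%), where 11.1% of all genes passed (6.48% lower and 4.6% higher). The shares among these genes were thus below those of all genes. Fold changes were mostly positive all the same, with 32 of 40 above 0 and a median of 0.42 without doxycycline (0.03 over all genes), and 27 of 40 and a median of 0.46 with it (0.04 over all genes). Sets 1 and 3 of SH2 cells had no control partner. Within sets 2 and 4, median differences of log2 CPM, SH2 minus control, were 0.28 and 0.10 without doxycycline. With it they were -0.05 and 0.49, and in set 2 19 genes were higher and 21 lower.

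CDK6, ENSG00000105810 on chromosome 7, 92604921 to 92836594, had 29.1, 44.2, 46.6 and 38.3 CPM in untreated SH2 cells of sets 1 to 4, against 169 and 72.7 CPM in untreated control cells of sets 2 and 4. The groups did not overlap, although control set 2 lay far above control set 4. The means were 39.6 ± 7.80 and 121 ± 68.1 CPM (SD, n = 4 and 2), a log2 fold change of -1.60 ± 0.40 (SE, edgeR adjusted p = 0.0231), or 3.04-fold lower. With doxycycline CDK6 had 29.3, 53.9, 41.2 and 39.7 CPM in SH2 cells, against 180.4 and 68.4 CPM in control cells. The log2 fold change was -1.60 ± 0.40 (adjusted p = 0.0184), or 3.03-fold lower, and again no SH2 library reached a control library. Control set 2, with its T-cell marker reads, held the highest CDK6, and without it the log2 fold changes were -0.87 untreated (adjusted p = 0.490) and -0.74 with doxycycline (adjusted p = 0.407). The untreated call also ended without untreated SH2 set 1 (adjusted p = 0.0548), set 2 (0.0519) or set 4 (0.0547). With only sets 2 and 4, where both kinds of cells were present, CDK6 gave -1.54 untreated (adjusted p = 0.170) and -1.40 with doxycycline (adjusted p = 0.157). The part of the T-cell marker reads in these values was not tested.

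RB1 had 46.1, 26.6, 13.2 and 6.06 CPM in doxycycline-treated SH2 cells, against 119.9 and 52.7 CPM in treated control cells. The means were 23.0 ± 17.6 and 86.3 ± 47.5 CPM (SD, n = 4 and 2), and the log2 fold change was -1.92 ± 0.58 (adjusted p = 0.0478), or 3.79-fold lower. Treated SH2 set 4, with the interferon-response reads, was the lowest library, and control set 2, with the T-cell marker reads, was the highest. The call ended without treated SH2 set 2, 3 or 4 (adjusted p = 0.0843, 0.112 and 0.0518) and without control set 2 (log2 -1.21, adjusted p = 0.392) or set 4 (log2 -2.40, adjusted p = 0.0584). It ended too when only the compared groups were fitted (adjusted p = 0.115). Without doxycycline RB1 had 60.7, 30.5, 24.6 and 41 CPM in SH2 cells, against 87.3 and 69.8 CPM in control cells, with no overlap and a log2 fold change of -1.0 ± 0.58 that did not pass (adjusted p = 0.381).

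TK1, the cytosolic thymidine kinase of the salvage pathway, ENSG00000167900 on chromosome 17, 78174075 to 78187233, stood next in order with doxycycline. It had 63.7, 64.5, 26.0 and 41.4 CPM in SH2 cells of sets 1 to 4, against 17.0 and 11.8 CPM in control cells of sets 2 and 4. No control library reached an SH2 library, and the log2 fold change was 1.75 ± 0.56 (adjusted p = 0.0615). Under the DESeq2 test it passed (adjusted p = 0.0144), and it passed in limma on the deposited table (0.0478), without a filter on low counts (0.00166) and without treated SH2 set 3 (0.0456). Without doxycycline TK1 had 53.7, 53.1, 23.0 and 18.4 CPM in SH2 cells, against 28.9 and 11.6 CPM in control cells, and the groups overlapped (log2 fold change 0.88 ± 0.54, adjusted p = 0.421). The difference between the conditions was the interaction given above, which did not pass.

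With the set number as a block, which pairs SH2 with control cells within sets 2 and 4, edgeR passed 2 of 40 genes without doxycycline, CDK6 and UNG, and 6 of 40 with it. UNG, the uracil glycosylase that clears uracil from new DNA, was then higher in untreated SH2 cells (log2 1.0 ± 0.30, adjusted p = 0.0446). MCM5 (log2 1.12 ± 0.36, adjusted p = 0.0456), MCM7 (0.92 ± 0.29, adjusted p = 0.0435), RFC2 (1.06 ± 0.34, adjusted p = 0.0467) and TK1 (1.77 ± 0.33, adjusted p = 0.00262) were higher in treated SH2 cells, and CDK6 (-1.35 ± 0.29, adjusted p = 0.00652) and RB1 (-2.25 ± 0.43, adjusted p = 0.00355) were lower. Under this block 12.6% of all genes passed without doxycycline and 18.1% with it. The median over the 40 genes was 0.31 without doxycycline (0.002 over all genes) and 0.29 with it (0.005 over all genes).

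**Figure D5:**
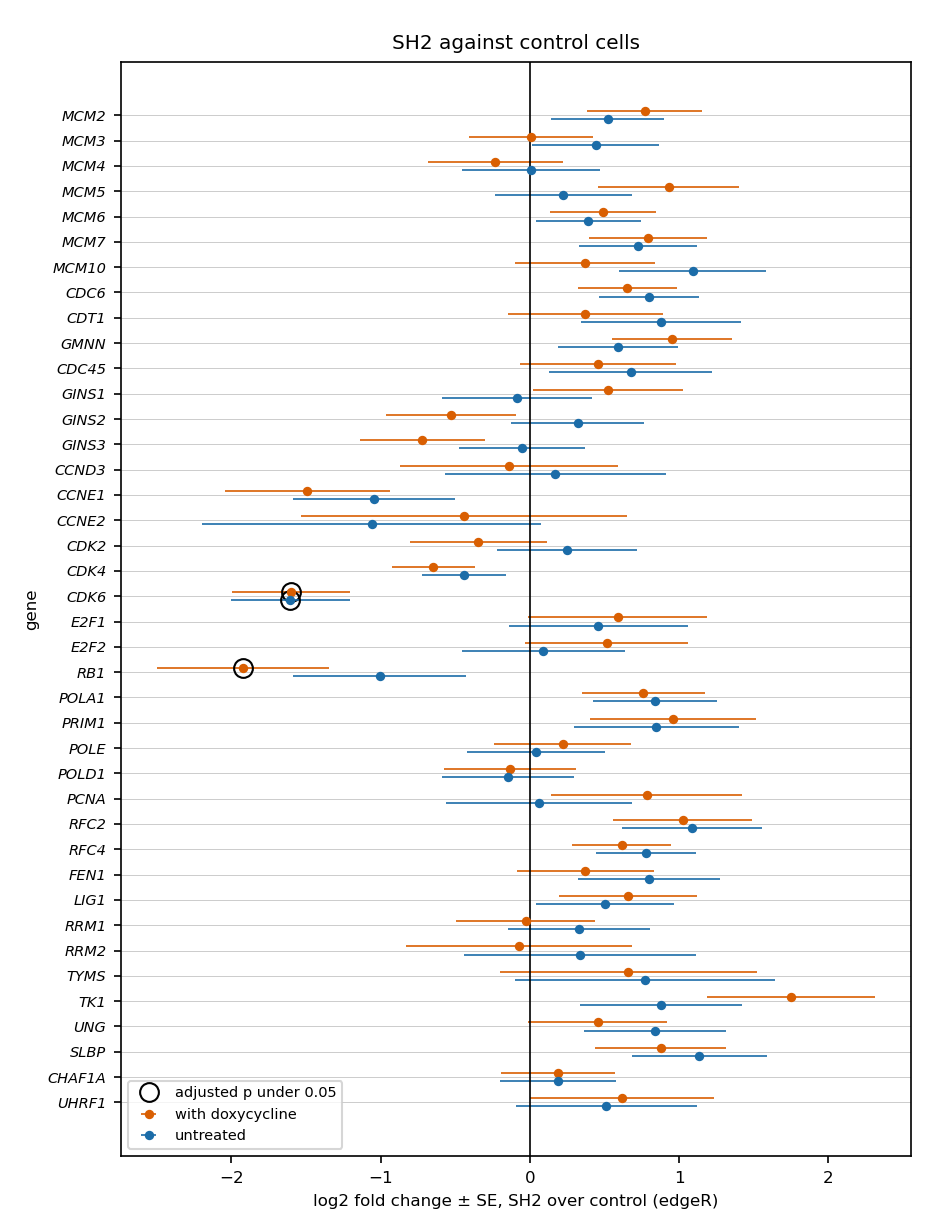
Log2 fold change ± SE of SH2 over control cells (horizontal axis, edgeR) for the 40 tested genes (vertical axis), with doxycycline (orange) and untreated (blue); black rings mark an adjusted p under 0.05. CDK6 is ringed in both comparisons and RB1 with doxycycline, and 27 of 40 orange points and 32 of 40 blue points lie right of 0.

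The untreated comparison had 5 further genes at an unadjusted p under 0.05, all higher in SH2 cells, which makes 6 of 40 with CDK6 (15%) beside 20.3% of all genes (9.55% higher and 10.7% lower). SLBP, ENSG00000163950 on chromosome 4, 1692800 to 1712555, had 31.1, 21.1, 44.0 and 37.4 CPM in untreated SH2 cells, against 17.1 and 13.4 CPM in untreated control cells (log2 fold change 1.14 ± 0.45, adjusted p = 0.164). CDC6, which loads the MCM ring together with CDT1, ENSG00000094804 on chromosome 17, 40287633 to 40304657, had 66.0, 42.4, 35.6 and 70.6 CPM in untreated SH2 cells, against 30.8 and 30.7 CPM in untreated control cells (log2 fold change 0.80 ± 0.34, adjusted p = 0.189). For both genes all SH2 libraries lay above both control libraries. The other 3 were RFC4, RFC2 and MCM10, with log2 fold changes of 0.78, 1.09 and 1.09. With doxycycline 7 of 40 had an unadjusted p under 0.05 (17.5%, beside 25% of all genes): GMNN, RFC2 and TK1 were positive, and CDK6, RB1, CCNE1 and CDK4 negative.

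Over all libraries, whatever the treatment, 3 genes were higher in each of the 8 SH2 libraries than in any of the 4 control libraries: CDC6, GMNN, the inhibitor of CDT1, and POLA1, the catalytic subunit of the primase polymerase (7.5%, beside 7% of all genes). CDK6 was the 1 gene lower in all (2.5%, beside 8.59%). Within sets 2 and 4, where SH2 and control libraries can be paired, 13 of 40 genes were higher in SH2 cells in 4 of 4 pairs (32.5%, beside 21.7% of all genes). They were MCM2, MCM5, MCM6, MCM7, CDC6, GMNN, POLA1, RFC2, RFC4, TYMS, TK1, UNG and SLBP. Lower in 4 of 4 pairs were CCNE1, CDK4, CDK6 and RB1 (10%, beside 22.4%). Of all 11968 genes, 5696 were negative and 6271 positive with doxycycline, and 5780 and 6188 without it. By role, 6 of 6 tested cyclins and kinases were negative with doxycycline (median -0.54) and 4 of 6 without it (median -0.74). In treated libraries 6 of 6 were lower in set 2 and 5 of 6 in set 4, where CCNE2, with few counts, was higher by 1.54. Of the 14 licensing and helicase genes, 11 were positive with doxycycline (median 0.48) and 12 without it (median 0.48), but in treated libraries of set 2 they split 7 to 7 (median 0.13). A difference between the roles was not tested. The medians over the 40 genes moved with single libraries: the untreated median of 0.42 was 0.11 without SH2 set 1, 0.20 without control set 4 and 0.73 without control set 2, and the median with doxycycline was 0.10, 0.15 and 0.79 without the same sets of the treated groups.

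Further genes of the pathway, 63 that are not among the 41, were examined in the same way, and 61 were tested. In SH2 cells with doxycycline 0 of 61 passed over all genes, 42 were positive and 19 negative, and the median was 0.17. The 2 smallest p-values were those of HELLS, a chromatin remodeller of S phase (log2 0.85 ± 0.35, adjusted p = 0.983), and E2F4, an E2F factor of quiescent cells (log2 -0.64 ± 0.29, adjusted p = 0.983). In control cells 0 of 61 passed, and POLE2 (1.81 ± 0.89) and E2F3 (0.82 ± 0.50) had the smallest p-values. Between SH2 and control cells 0 of 61 passed with or without doxycycline. POLE3 (0.70 ± 0.29, adjusted p = 0.173) and RFC1 (0.54 ± 0.24, adjusted p = 0.213) led without doxycycline, and POLE4 (1.13 ± 0.50, adjusted p = 0.174) and E2F4 (-0.74 ± 0.34, adjusted p = 0.190) with it. CCND1, the remaining D-type cyclin, had 23 counts over all 12 libraries. The medians of the 61 genes, SH2 over control, were 0.15 without doxycycline and 0.14 with it.

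For comparison, 26 genes of G2 and mitosis were followed. Treated minus untreated medians in SH2 cells were 0.26, 0.30, 0.33 and 0.19 in sets 1 to 4, positive in each set, whereas those of the 40 G1/S and replication genes were close to 0 in sets 1 to 3. None of the 26 passed over all genes, and the smallest p-value was that of FOXM1, a transcription factor of mitotic genes (log2 0.86 ± 0.33, adjusted p = 0.983). In control cells the medians were also positive, at 0.18 in set 2 and 0.57 in set 4. Between SH2 and control cells the fitted medians of the mitotic genes were 0.42 without doxycycline and 0.37 with it. Of the 26 genes, 24 and 23 were above 0. Within set 2 the median differences, SH2 minus control, were 0.41 untreated and 0.51 treated, and within set 4 they were -0.54 and -0.95. Between sets the mitotic genes took another order: they summed to 4970, 4522, 4545 and 1268 CPM in treated and 4144, 4071, 3191 and 997 CPM in untreated SH2 cells, lowest in set 4. Set 1 was the highest in both groups for 6 of 26 mitotic genes, against 21 of 40 G1/S and replication genes. It was the highest in both for 28 of the 61 further pathway genes tested and for 16.2% of all genes. The range between SH2 set means was over 1 on the log2 scale for 26 of 26 mitotic genes (38.2% of all genes), with a median of 2.03. Control set 2 was above set 4 in both treated and untreated libraries for 21 of 26 (31.5% of all genes), with a median difference of 0.81. A spread between sets was thus not particular to the G1/S and replication genes. Whether the lists differ was not tested, since genes of a list share their libraries.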

How the data were processed

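RNA of 12 libraries of ALDH+ 697(EU3) cells was sequenced with the QuantSeq 3′ kit (FWD), per the labels' protocols. FastQC, STAR, HTSeq and DESeq2 and the build hg38 are named in the submitters' processing notes, without versions; the strand setting of the counting is not given in the sources used here. The authors deposited raw read counts per gene ID for each library (64253 IDs and 5 summary lines, which were left out) and a table of 26231 genes with normalised signal, counts divided by size factors. Of its values 100% came out as whole reads (tolerance 0.01), and 100% of these equalled the deposited counts. A fit of edgeR on those reads was therefore the same fit, with 0, 0, 1 and 2 of these genes called in the 4 comparisons between groups, and adds no separate check. Reads that did not map uniquely made up 42.2% to 63.8% of each library, reads in no feature 3.25% to 7.73% and ambiguous reads 1.11% to 1.62%.

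Counts of all 12 libraries were fitted together with edgeR 4.0.16 in R 4.3.3 (TMM, filterByExpr with a minimum count of 10, robust quasi-likelihood, Benjamini-Hochberg threshold 0.05), and p-values were adjusted over all 11968 genes tested. Levels are CPM with TMM library sizes, and differences within a set are of log2 CPM with a prior count of 3. Errors are SD between libraries or SE of the fit. Coordinates are GENCODE v29 (GRCh38). Alternatives were DESeq2 1.42.0 (size factors and test), limma 3.58.1 on the deposited table, no filter, only the compared groups, the set number as a block, each library left out, both SH2 libraries of set 4 left out, and only sets 2 and 4. Same-numbered treated and untreated SH2 libraries deviated together (r of 0.188 to 0.663 for the 4 sets, against -0.548 to 0.272 for other pairs). Deviations were taken from the mean of the 4 libraries of a group, which by itself pulls r of other pairs down. Treated set 2 had a higher r with untreated set 1 (0.272) than with its own partner (0.188). Each number also marks a separate sort, so sets were taken as paired. Values with the block are given for counts past the threshold, for medians between SH2 and control cells and for some named genes. The other values come from the fit without it. No 2 libraries of a group agreed within sampling noise (chi-square per degree of freedom 8.64 to 50.4). The genes and lists were chosen with earlier results of these data known. Values in every library are given for the genes with the 3 smallest p-values per comparison, genes past the threshold, genes whose treated and untreated SH2 libraries did not overlap and the gene with most counts per role. Of the further pathway genes, the 2 with the smallest p-values per comparison were named where none passed. TYMS, CDK4, CDC45, PCNA and GINS1 were described after their values were seen.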

Additional observations from a re-analysis of the deposited data

Results flagged for a closer look

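Within each group of 4 SH2 libraries, the gap between the highest or lowest library and its nearest neighbour was set against the whole range of the group and Dixon's critical value for 4 samples. Of 80 such groups 3 passed, and chance passes about 1 in 20. In treated SH2 cells, CCNE2, the cyclin E2 gene, stood at 7.12 CPM in set 1, against 1.65 to 2.02 CPM in the other 3 sets. Its end lies within 500 bases of INTS8 on the other strand. In the same library RRM1 stood at 325.9 CPM, against 172.4 to 185.2 CPM in the other 3 sets. In untreated SH2 cells, POLD1, the catalytic subunit of polymerase delta, stood at 98.4 CPM in set 1, against 44.4 to 53.4 CPM in the other 3 sets.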

How the results depend on the processing

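Of the genes named for their p-values, FEN1, MCM10 and MCM3 reversed in control cells without the treated library of set 2, at -0.55, -0.028 and -0.37; with single libraries left out they ran up to 1.44, 1.11 and 1.26. Without that library, set 4 is set against sets 2 and 4, which differ in level. Leaving out any library of a pair likewise lets set levels into the doxycycline medians below. In SH2 cells the count passing under doxycycline was 0 of 40 in every alternative run, and the median ran from -0.16 to 0.30 with single libraries left out. In control cells the count was 0 throughout and the median ran from -0.33 to 0.41, and in the interaction from -0.39 to 0.19. Between untreated SH2 and control cells the count was 1, from 0 to 1 with single libraries left out and 0 without both SH2 libraries of set 4 (CDK6 adjusted p = 0.0502) or with only sets 2 and 4; the median ran from 0.11 to 0.73 and was 0.29 with only sets 2 and 4. Between treated SH2 and control cells the count was 2, from 1 to 2 with single SH2 libraries left out, 1 with only the compared groups fitted and 0 with only sets 2 and 4. It was 3 under the DESeq2 test, in limma, without a filter on low counts and without both SH2 libraries of set 4. In the last of these CDK6, PRIM1 and TK1 passed and RB1 did not. The median ran from 0.10 to 0.79 with single libraries left out. With the set number as a block the counts were 2 untreated and 6 treated, and the block changed no other count past the threshold of these genes. Fewer libraries were fitted in the left-out settings; the cause of the other changes was not tested. Where 1 control library was left in a group, it was assumed to vary like the others. PRIM1 passed in treated cells without SH2 set 4 (log2 1.29, adjusted p = 0.0452), and RFC2 without control set 2 (log2 2.17, adjusted p = 0.0398). Over all genes, doxycycline in SH2 cells called 2 genes, 47 without a filter on low counts, 6 with the block, 14 in DESeq2 and 0 with only the groups compared. Untreated SH2 against control cells called 938 genes, 1505 with the block, 1449 without a filter and 343 without control set 2, and treated ones 1326, 2171 with the block, 789 with only the groups compared and 645 without control set 4. The fit on only sets 2 and 4 and the fit on recovered reads were chosen after seeing the data. Genes with few counts, such as CCND2, CCNE1 and CCNE2, are limited by depth, and with 2 control libraries per group single libraries carry the comparisons with control cells.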
